A study of Mus musculus with 12 samples.

Results

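The genes described here are 36 genes of the cell cycle and of DNA replication, chosen by name and followed in denervated and intact mouse muscle. They comprise 14 genes of S phase, the stage in which DNA is copied, 15 genes of mitosis, the stage in which the copied chromosomes are parted, 5 cyclins and kinases of G1, the stage before S phase, and 2 inhibitors of cyclin-dependent kinases. Symbols were matched to the gene names of the deposited tables. All 36 were found among the 25094 genes of each of the 2 tables, 1 table per strain, with the same transcript in both.

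The RNA was polyadenylated RNA of the gastrocnemius, the large muscle of the calf. All mice were male and wild type, from 2 inbred strains, C57BL/6 and BALB/c, and strain and leg give 4 groups of 3 libraries each. In the right leg the sciatic nerve had been severed and its stumps folded back and stitched to muscle, and tissue was collected 2 weeks later. The left leg is labelled healthy and the right leg atrophied. The treatment protocol also mentions sham surgery that only exposed the nerve, and no label says whether left legs had it. No agent, transgene or deletion is named for any group, and the labels used here give no age. Whether the 3 libraries of a group stem from separate mice, and which legs belong to 1 mouse, is not labelled, so the p-values below measure only the spread between these libraries, which may be technical.

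As background, a cell leaves G1 when D-type cyclins with Cdk4 and E-type cyclins with Cdk2 phosphorylate the retinoblastoma protein, which releases E2F transcription factors at the promoters of replication genes. Genes of mitosis are switched on later, mainly through the CHR element, a short promoter motif bound by the MuvB complexes with B-Myb and FoxM1. Muscle fibres have left the cell cycle for good, and dividing cells of muscle are mainly satellite cells (the muscle stem cells), immune cells, fibro-adipogenic progenitors (connective tissue stem cells) and endothelial cells.

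Values are RPKM, that is, reads divided by transcript length and by a total of each library. They were tested as log2(RPKM + 0.5), a scale on which the change of weakly expressed genes is understated. The scaling totals behind them were 18132620 to 19282890 reads per library. A gene was tested within a table when its mean over the 6 libraries was at least 0.1 RPKM, and was called when the Benjamini-Hochberg adjusted p of limma, over all tested genes, was under 0.05. The mean for the filter covers both legs, so a low gene could pass through the leg where it was high. On this log2 scale the right leg was higher by 0.52 for the median tested gene in C57BL/6 and by 0.38 in BALB/c. A relative change below is a gene's log2 change minus this median. For most members the call is also given after median-of-ratios rescaling. This rescaling divides each library by the median ratio of its genes to their geometric mean over the table, and leaves a median change of 0.02 in both strains. For single genes of other lists, changes and calls are as deposited unless stated otherwise. The sum of 10 muscle fibre genes, among them Acta1 and Ckm, was lower in right legs. It was 109200 to 118900 RPKM in left and 69020 to 73820 RPKM in right libraries of C57BL/6. In BALB/c it was 86360 to 107900 RPKM in left and 57260 to 81190 RPKM in right libraries. Of these 10 genes, 4 were called higher and 6 lower in C57BL/6 as deposited, and 2 higher and 3 lower in BALB/c.

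In the right legs 12 of 13 tested S phase genes and 4 of 9 tested mitotic genes rose in C57BL/6, and 8 of 13 and 5 of 11 in BALB/c, and a few members stood far from the rest. Some risen members, named below, passed the filter only through their right legs. The difference between these roles was not tested. After rescaling (below) it was 6 of 13 against 3 of 9 and 4 of 13 against 3 of 11, and by limma-voom the median changes were close (1.17 against 1.10 in C57BL/6 and 1.02 against 0.94 in BALB/c). As deposited, 19 of the 29 members tested in C57BL/6 rose and 2 fell. In BALB/c 17 of 31 tested members rose and 1 fell. Over all tested genes, the shares called higher and lower were 63.6% and 8.56% in C57BL/6 and 42.5% and 7.67% in BALB/c, so the share of rising members in C57BL/6 lay near that of all genes. After median-of-ratios rescaling, 11 members rose and 5 fell in C57BL/6, where the shares of all tested genes were 28.2% and 26.4%. In BALB/c 9 members rose and 3 fell after it, with shares of 21.8% and 19%. Among the tested members, the right libraries lay above every left library for 19 and below them for 2 in C57BL/6 (66.2% and 9.57% of all tested genes), and for 21 and 2 in BALB/c (48.1% and 10.4%). In bulk tissue, more or fewer cells of a type and more or less RNA per cell cannot be told apart.

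As deposited, 14 members rose in both strains, 73.7% of those that rose in C57BL/6 and 82.4% of those that rose in BALB/c. Over all tested genes these shares were 62.2% and 91.4%, so the overlap of the members is not read as particular to them. The 14 were Mcm3, Mcm5, Mcm6, Mcm7, Pcna, Rrm1, Rrm2, Ccne1, Ccna2, Birc5, Prc1, Cdk2, Cdk4 and Ccnd3. After rescaling, 7 of them still rose in both, namely Mcm6, Mcm7, Rrm2, Ccne1, Ccna2, Prc1 and Ccnd3 (63.6% of those that rose in C57BL/6 and 77.8% in BALB/c, against 59.5% and 75.7% over all tested genes). Aurka fell in both strains under either scaling. A member called in 1 strain and not in the other is not thereby shown to differ between them, and the test of that difference is given further on.

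**Figure D1:**
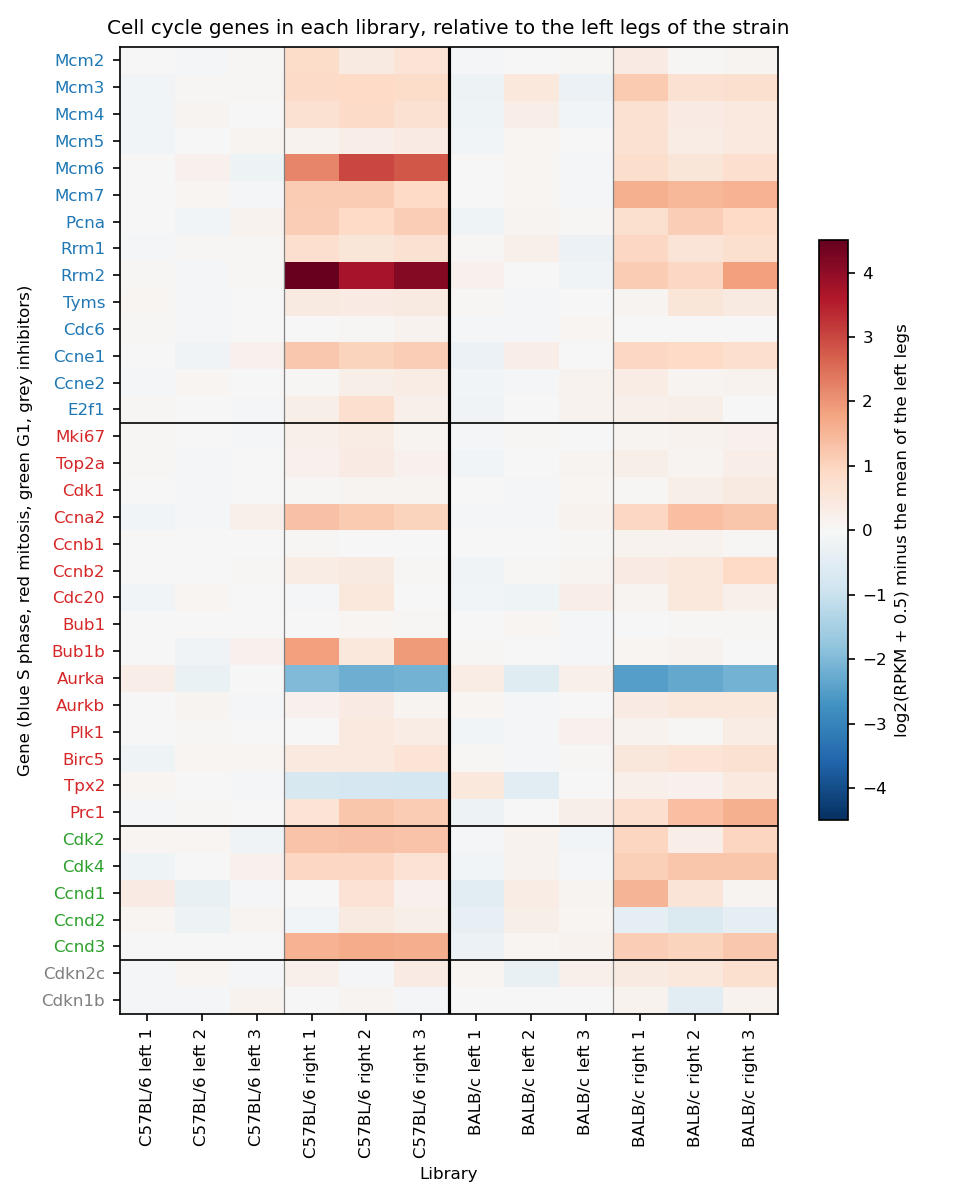
Heat map of the 36 genes (rows, by role) in the 12 libraries (columns), coloured by log2(RPKM + 0.5) minus the mean of the left legs of the same strain, as deposited. Rrm2 and Mcm6 stand out in the C57BL/6 right legs, and Aurka is low in all 6 right legs.

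Of the 14 S phase genes, 13 passed the filter in each strain. In C57BL/6, 12 of these rose and 0 fell as deposited, at an adjusted p under 0.05 by limma. Ccne2 was the member not called, with a change of 0.22. Of those that rose in C57BL/6, Tyms and E2f1 had left means under 0.1 RPKM. Both passed the filter only through their right legs, and their calls carry that limit. In BALB/c 8 rose and 0 fell. After rescaling, 6 rose and 1, Ccne2, fell in C57BL/6, and 4 rose and 0 fell in BALB/c. The median change of the group was 0.75 in C57BL/6 and 0.69 in BALB/c, which is 0.23 and 0.31 above the median tested gene. Summed over the 14 genes, the level went from 21.5 to 23.1 RPKM in C57BL/6 left libraries to 53.3 to 59.2 RPKM in right libraries, and from 22.7 to 27.6 RPKM to 45.2 to 49.9 RPKM in BALB/c.

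Of the 15 mitotic genes, 9 passed the filter in C57BL/6 and 11 in BALB/c. In C57BL/6, 4 rose (Ccna2, Bub1b, Birc5 and Prc1) and 2 fell (Aurka and Tpx2), and in BALB/c 5 rose (Ccna2, Ccnb2, Aurkb, Birc5 and Prc1) and 1 fell (Aurka). Of the risen genes, Bub1b and Birc5 in C57BL/6 and Ccnb2 and Aurkb in BALB/c had left means under 0.1 RPKM. They passed the filter only through their right legs, and their calls carry that limit. After rescaling, 3 rose and 2 fell in C57BL/6 and 3 rose and 1 fell in BALB/c. The median change of the tested mitotic genes was 0.27 in each strain, which is 0.25 below the median tested gene in C57BL/6 and 0.10 below it in BALB/c. With a pseudocount of 0.1 in place of 0.5, a setting that compresses low genes less, the relative median was 0.02 in C57BL/6 and 0.10 in BALB/c, against 0.37 and 0.35 for the S phase genes. The median level of the 15 genes lay between 0.042 and 0.096 RPKM in C57BL/6 left libraries and between 0.103 and 0.275 RPKM in right libraries, and that of the S phase genes between 0.552 and 0.718 RPKM and between 2.30 and 2.58 RPKM.

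**Figure D2:**
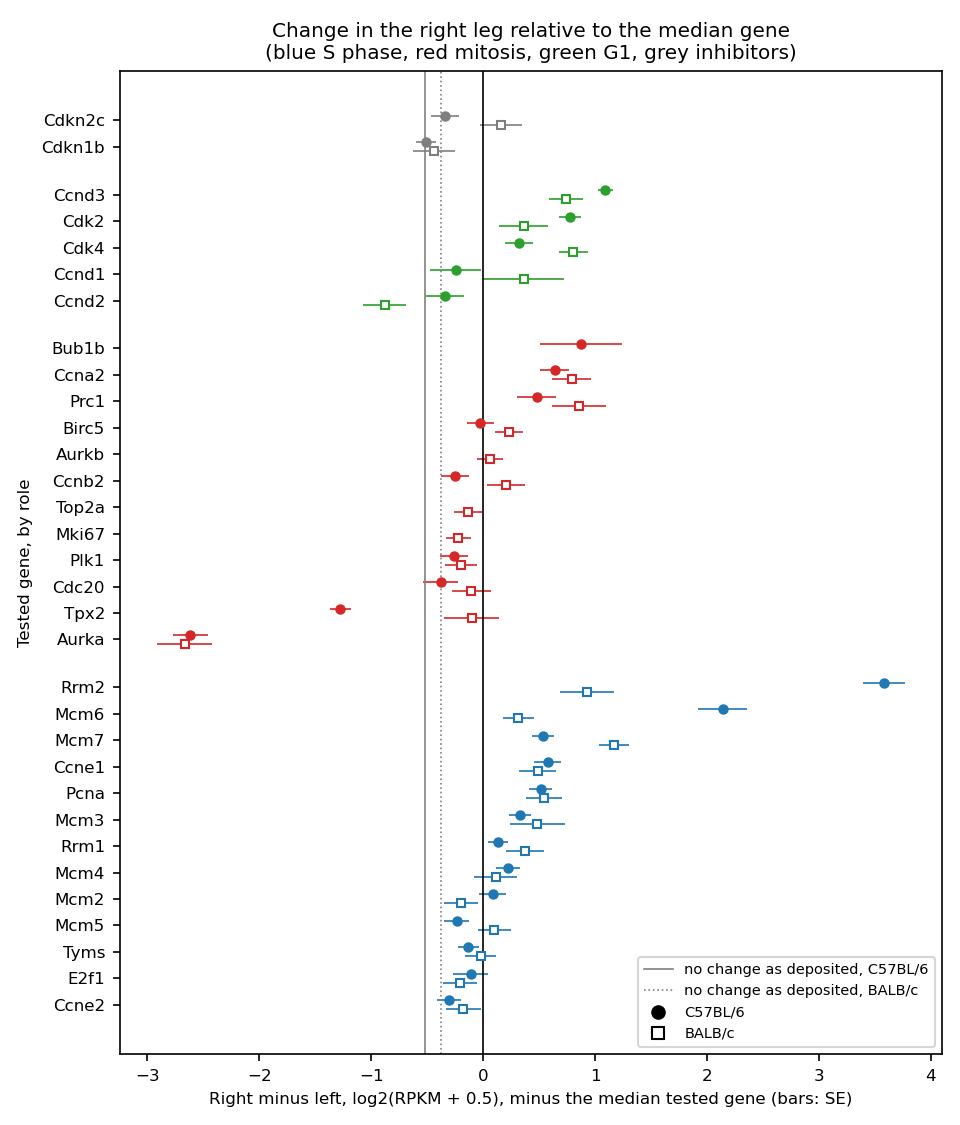
Log2 change of each tested gene, right minus left, after subtraction of the median tested gene of the strain (horizontal axis, bars show the standard error), for C57BL/6 (filled circles) and BALB/c (open squares), grouped by role. Grey lines mark where a gene with no change as deposited would lie. Rrm2 and Mcm6 in C57BL/6 lie at 3.58 and 2.14, and Aurka lies near -2.6 in both strains.

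The promoters of 4 members are shown as examples of risen genes with different motifs: Rrm2 and Mcm6 rose most in C57BL/6, Mcm7 rose in both strains under either scaling and holds motifs of both roles, and Prc1 is a mitotic gene that rose in both strains under either scaling. Each sequence is given 5′ to 3′ on the strand of the gene, from 250 bases before to 30 bases after the start site in RefSeq on build GRCm38.p6, the C57BL/6J reference; BALB/c alleles were not analysed here. Capitals mark an E2F site (TTTCCCGC, TTTCGCGC, TTTGCCGC or TTTGGCGC), a CHR element (TTTGAA or TTCGAA) or a CCAAT box (CCAAT), each searched on both strands. The regions are chr12:24708004-24708283 on the plus strand for Rrm2, chr1:128359676-128359955 on the minus strand for Mcm6, chr5:138171854-138172133 on the minus strand for Mcm7 and chr7:80294201-80294480 on the plus strand for Prc1.
Rrm2: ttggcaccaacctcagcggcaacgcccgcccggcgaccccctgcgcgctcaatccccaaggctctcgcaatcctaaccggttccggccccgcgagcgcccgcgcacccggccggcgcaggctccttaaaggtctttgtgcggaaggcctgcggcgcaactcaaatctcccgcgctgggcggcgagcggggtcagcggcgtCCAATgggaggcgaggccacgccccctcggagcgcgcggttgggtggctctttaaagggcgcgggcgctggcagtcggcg
Mcm6: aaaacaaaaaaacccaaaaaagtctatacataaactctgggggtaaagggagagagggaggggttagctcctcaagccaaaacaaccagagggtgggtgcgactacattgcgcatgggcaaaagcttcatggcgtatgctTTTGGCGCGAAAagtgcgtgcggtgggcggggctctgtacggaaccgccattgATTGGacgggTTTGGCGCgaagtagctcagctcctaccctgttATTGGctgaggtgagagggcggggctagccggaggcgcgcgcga
Mcm7: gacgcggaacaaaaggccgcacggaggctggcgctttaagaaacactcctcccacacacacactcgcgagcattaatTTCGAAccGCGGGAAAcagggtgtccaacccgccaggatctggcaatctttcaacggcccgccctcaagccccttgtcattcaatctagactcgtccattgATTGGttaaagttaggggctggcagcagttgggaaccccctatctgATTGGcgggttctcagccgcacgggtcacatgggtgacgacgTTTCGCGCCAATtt
Prc1: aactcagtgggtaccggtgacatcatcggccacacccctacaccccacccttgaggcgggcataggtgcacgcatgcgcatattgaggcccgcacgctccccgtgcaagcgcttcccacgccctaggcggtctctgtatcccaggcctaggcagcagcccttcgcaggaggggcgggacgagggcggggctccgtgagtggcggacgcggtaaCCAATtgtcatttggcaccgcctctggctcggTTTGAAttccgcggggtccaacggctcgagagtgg

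The Mcm6 promoter held 3 E2F sites, of which those with first bases at -110 and -106 from the start site overlap each other on opposite strands and the other lies at -47. The Mcm7 promoter held an E2F site at -165, 8 bases after the first base of a palindromic CHR element at -173, and another at 17 that shares bases with a CCAAT box. The Rrm2 promoter held a CCAAT box at -50 and none of the E2F or CHR letters searched. The Prc1 promoter held a CCAAT box at -37 and a CHR element at -5.

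Of the 36 members, 29 had a promoter of 300 bases (250 before to 50 after the start) in the RefSeq table, counting the first listed where a gene has several. An E2F site lay in 5 of 12 S phase promoters (41.7%; Mcm3, Mcm5, Mcm6, Mcm7 and Cdc6), in 1 of 12 mitotic promoters (8.33%; Cdk1) and in 2.32% of the promoters of all 27025 genes. A CHR element lay in 10 of 12 mitotic promoters (83.3%), among them Mki67, Top2a, Cdk1, Aurka, Bub1b and Prc1, in 2 of 12 S phase promoters (16.7%; Mcm2 and Mcm7) and in 19.4% of all promoters. A CCAAT box lay in 91.7% of the mitotic, 66.7% of the S phase and 37.9% of all promoters. A match is a description of letters in this window and shows neither binding nor a cause of the values below. Members with a CHR element did not all share a direction, since Prc1 rose in both strains and Aurka fell in both. Aurka was the only member with this element called lower as deposited. Of the members with an E2F site, Mcm3, Mcm5, Mcm6, Mcm7 and Cdk2 rose in both strains as deposited. After rescaling only Mcm6 and Mcm7 of these rose in both. Cdc6 and Cdk1 were under the filter. Whether a motif goes with a direction was not tested.

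**Figure D3:**
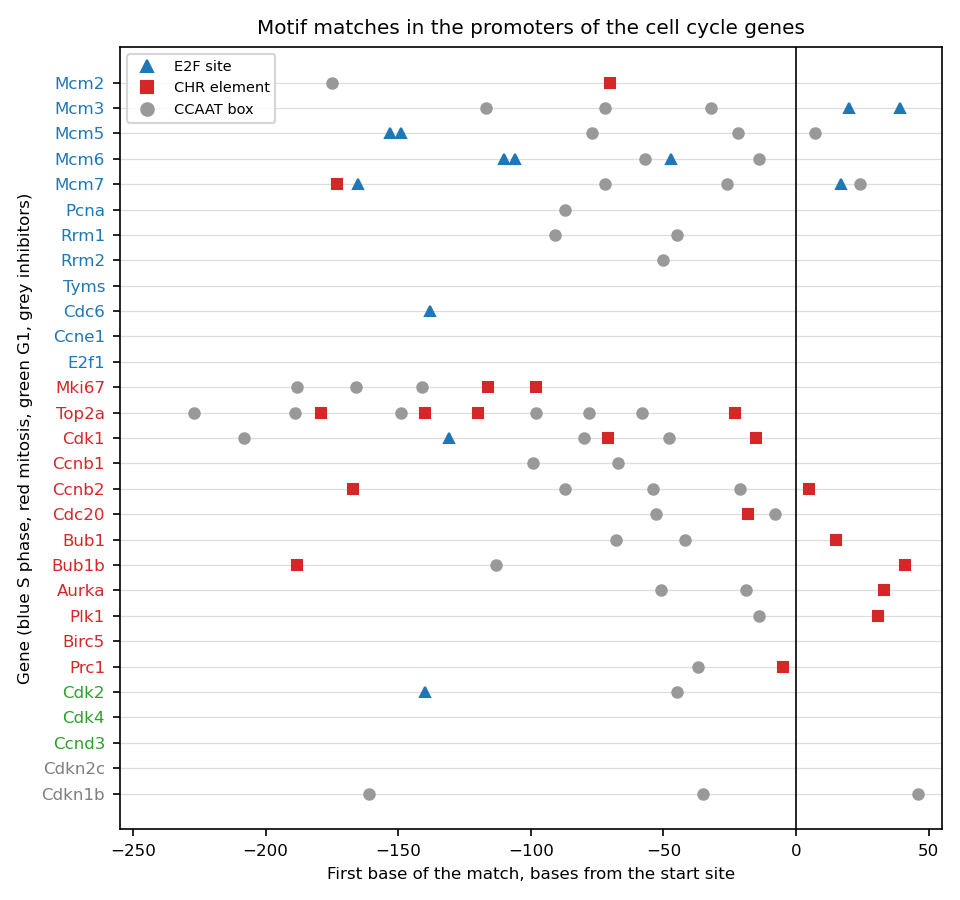
Positions of the first base of each motif match (horizontal axis, bases from the start site) in the promoters of the 29 members found in the RefSeq table, with triangles for E2F sites, squares for CHR elements and circles for CCAAT boxes. CHR elements lie mostly in the rows of the mitotic genes and E2F sites mostly in those of the S phase genes.

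Rrm2 encodes the small subunit of ribonucleotide reductase, the enzyme that makes deoxyribonucleotides, and is made mainly in S phase (NM_009104, chromosome 12, 25393119 to 25399011, plus strand, mm9 as the tables list it). In C57BL/6 it measured 0.122, 0.074 and 0.122 RPKM in the left libraries and 12.9, 7.41 and 10.2 RPKM in the right. The legs did not overlap, and the sum of reads went from 13 to 1260, a ratio of 96.0 with an exact 95% interval for counting error of 55.9 to 181. The log2 change was 4.11 ± 0.18 (SE, adjusted p = 2.81e-06), 3.58 relative to the median gene, and rank 101 from the top among 14551 tested genes. In BALB/c the left libraries measured 0.455, 0.331 and 0.248 RPKM and the right 1.37, 1.10 and 2.49 RPKM. The legs again did not overlap, and the log2 change was 1.30 ± 0.24 (adjusted p = 0.00282), 0.93 relative to the median gene. The call held after rescaling in both strains.

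Rrm1, the large subunit of the same enzyme, was among the most abundant S phase members and changed less. In C57BL/6 it measured 6.14, 6.90 and 6.88 RPKM in the left legs and 11.4, 9.82 and 11 RPKM in the right, a log2 change of 0.65 ± 0.09 (adjusted p = 0.000347). BALB/c libraries held 6.85, 7.68 and 5.33 RPKM in the left legs and 13.1, 10.1 and 11.2 RPKM in the right, a log2 change of 0.75 ± 0.17 (adjusted p = 0.00757). Every right library lay above every left library in each strain, but relative to the median gene the changes were 0.13 and 0.38, and after rescaling Rrm1 was not called in either (-0.03 and 0.26). Per kilobase, Rrm2 stood at 0.106 ± 0.0277 RPKM against 6.64 ± 0.433 RPKM for Rrm1 in C57BL/6 left legs (mean ± SD, n = 3), and at 10.2 ± 2.75 against 10.7 ± 0.827 RPKM in right legs. In BALB/c right legs Rrm2 stayed at 1.65 ± 0.736 RPKM against 11.4 ± 1.52 RPKM for Rrm1.

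The genes Mcm2 to Mcm7 encode the subunits of the helicase that unwinds DNA at replication forks, which act as a ring of all of them, and their changes were unequal. Mcm6 (NM_008567, chromosome 1, 130228152 to 130256282, minus strand, mm9) measured 0.411, 0.525 and 0.27 RPKM in C57BL/6 left legs and 3.60, 6.76 and 5.66 RPKM in right legs. All right libraries were above all left ones, with 67 against 898 reads, and the log2 change was 2.67 ± 0.22 (adjusted p = 3.02e-05), 2.14 relative to the median gene. In BALB/c Mcm6 measured 0.205, 0.262 and 0.164 RPKM in left legs and 0.724, 0.535 and 0.686 RPKM in right legs. These legs did not overlap either, and the log2 change was 0.69 ± 0.14 (adjusted p = 0.00364), 0.31 relative to the median gene. Mcm6 rose in both strains after rescaling too. Its neighbour Dars, an aminoacyl-tRNA synthetase gene on the same strand 4001 bases away, went from 23.7 ± 1.58 to 100.4 ± 2.99 RPKM in C57BL/6 and from 19.8 ± 0.561 to 65.3 ± 9.53 RPKM in BALB/c, and any part of it in the Mcm6 values was not tested.

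Mcm7 (NM_001356576) measured 2.95, 3.07 and 2.65 RPKM in C57BL/6 left legs and 6.97, 6.88 and 5.81 RPKM in right legs, and 2.80, 3.08 and 2.75 against 9.73, 8.92 and 9.47 RPKM in BALB/c. The legs were apart in each strain. The log2 change was 1.06 ± 0.10 in C57BL/6 (adjusted p = 6e-05) and 1.55 ± 0.13 in BALB/c (adjusted p = 8.85e-05), or 0.53 and 1.17 relative to the median gene, and both calls held after rescaling. The tables list the microRNA genes Mir93, Mir106b and Mir25 inside Mcm7 on its strand. Their own means were at most 0.659 RPKM in this polyadenylated RNA.

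Mcm2, another helicase subunit, measured 2.47, 2.24 and 2.52 RPKM in C57BL/6 left legs and 4.64, 3.35 and 3.92 RPKM in right legs, and 2.88, 3.03 and 3.13 against 4.04, 3.11 and 3.31 RPKM in BALB/c. It rose in C57BL/6 as deposited (0.61 ± 0.12, adjusted p = 0.00263), but stood at -0.01 after rescaling. In BALB/c its legs overlapped and it was not called (0.18 ± 0.15, adjusted p = 0.366), with a value of -0.28 after rescaling and -0.01 under TPM rescaling, which sets each library to the same sum of length-scaled values.

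Mcm3, Mcm4 and Mcm5 had C57BL/6 log2 changes of 0.85, 0.75 and 0.29 and BALB/c changes of 0.86, 0.49 and 0.48. As deposited each rose in C57BL/6, and Mcm3 and Mcm5 rose in BALB/c, where Mcm4 was not called (adjusted p = 0.0640). After rescaling only Mcm3 in C57BL/6 was called, at 0.33. The C57BL/6 call of Mcm5 was lost without left replicate 1 or 2 or right replicate 2 or 3 (adjusted p 0.0951 to 0.138), and its BALB/c call without left replicate 1 or 3 or right replicate 1 or 3 (0.0578 to 0.0899). That of Mcm3 in BALB/c was lost without left replicate 1 or 3 or right replicate 1 (0.0666 to 0.0779), and Mcm4 in BALB/c was called without left replicate 2, at 0.65 (adjusted p = 0.0232).

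Pcna, the sliding clamp that holds the replicative polymerases on DNA, measured 5.05, 4.64 and 5.73 RPKM in C57BL/6 left legs and 11.6, 10.01 and 11.6 RPKM in right legs. The BALB/c values were 4.68, 6.04 and 5.76 against 9.44, 12.5 and 10.6 RPKM. The legs were apart in each strain, with log2 changes of 1.04 ± 0.10 (adjusted p = 6.99e-05) and 0.92 ± 0.16 (adjusted p = 0.00207), which were 0.52 and 0.54 relative to the median gene. After rescaling Pcna was called in C57BL/6 (0.36) and not in BALB/c (0.43, adjusted p = 0.0734).

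The remaining S phase members were low, with means of at most 1.02 RPKM except for Ccne2. Ccne1, which encodes cyclin E1, the partner of Cdk2 at the entry into S phase, went from 0.209 ± 0.0837 to 1.02 ± 0.106 RPKM in C57BL/6 and from 0.103 ± 0.115 to 0.588 ± 0.0718 RPKM in BALB/c, and rose in both strains under either scaling (1.10 and 0.87 as deposited). Ccne2, its paralogue, had overlapping legs, with 2.45 ± 0.165 against 2.93 ± 0.349 RPKM in C57BL/6 and 1.99 ± 0.260 against 2.36 ± 0.236 RPKM in BALB/c, and was not called as deposited in either. Its value after rescaling was -0.39 in C57BL/6, a fall by the test (adjusted p = 0.0161), and -0.23 in BALB/c. Ccne2 shares 1852 bases of its span with Ints8 on the other strand. Since strand was not used in counting, reads of the genes cannot be told apart where these bases are exonic in both. Whether they are was not checked.

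E2f1, a transcription factor of replication genes, went from 12 to 43 reads over the C57BL/6 legs and rose as deposited (0.41 ± 0.15, adjusted p = 0.0434). Its highest C57BL/6 right library held 0.471 RPKM against 0.195 and 0.176 RPKM in the others. The call was lost without that library (0.24, adjusted p = 0.0682), without any left library (adjusted p 0.0790 to 0.113) and after rescaling. Tyms, which makes thymidylate, rose in C57BL/6 from 14 to 52 reads (0.39 ± 0.09, adjusted p = 0.00709), a call lost after rescaling, and went from 22 to 60 reads in BALB/c, where it was not called (adjusted p = 0.0626). Cdc6, which loads the helicase onto origins, was under the filter in both strains, with 9 against 17 reads in C57BL/6 and 11 against 11 in BALB/c.

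Aurka, the Aurora A kinase of centrosomes and spindle poles, showed the largest fall of any member (NM_001291185, chromosome 2, 172181690 to 172196070, minus strand, mm9). It measured 7.35, 4.72 and 6.03 RPKM in C57BL/6 left legs and 1.14, 0.922 and 0.977 RPKM in right legs. The BALB/c libraries held 7.32, 3.80 and 6.76 RPKM in left legs and 0.635, 0.778 and 0.935 RPKM in right legs. Every right library was below every left library of its strain. The log2 change was -2.09 ± 0.15 in C57BL/6 (adjusted p = 1.94e-05) and -2.29 ± 0.25 in BALB/c (adjusted p = 0.000214), and relative to the median gene -2.62 and -2.67. In left legs Aurka, at 6.03 ± 1.31 and 5.96 ± 1.89 RPKM, was the most abundant mitotic member per length, while the next, Ccna2 or Tpx2, had means between 0.915 and 1.47 RPKM. Cstf1, which lies 432 bases away on the other strand, moved the opposite way, from 11 ± 1.31 to 23.2 ± 0.812 RPKM in C57BL/6 and from 11.3 ± 0.942 to 23.8 ± 2.55 RPKM in BALB/c.

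Tpx2, the spindle protein that binds and activates Aurora A, fell in C57BL/6 (NM_001141975, chromosome 2, 152673700 to 152721057, plus strand, mm9). It measured 1.57, 1.48 and 1.35 RPKM in C57BL/6 left legs and 0.695, 0.674 and 0.623 RPKM in right legs. The legs did not overlap, and the log2 change was -0.75 ± 0.09 (adjusted p = 0.000236). For BALB/c the values were 1.81, 0.693 and 1.21 RPKM in left legs and 1.44, 1.40 and 1.75 RPKM in right legs. Those legs overlapped and no change was called (0.27 ± 0.24, adjusted p = 0.381), and after rescaling the value was -0.11.

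Ccna2, which encodes cyclin A, needed in S phase and at the entry into mitosis, measured 0.799, 0.809 and 1.14 RPKM in C57BL/6 left legs and 2.99, 2.65 and 2.35 RPKM in right legs. Its BALB/c values were 0.945, 0.901 and 1.15 RPKM against 2.32, 3.31 and 3.04 RPKM. All right libraries were above all left ones, with changes of 1.16 ± 0.13 (adjusted p = 0.000143) and 1.17 ± 0.17 (adjusted p = 0.000939), and both calls held after rescaling. Ccna2 shares 863 bases of its span with Exosc9 on the other strand, which went from 6.4 ± 0.598 to 16.4 ± 0.715 RPKM in C57BL/6 and from 6.23 ± 0.448 to 14.5 ± 1.25 RPKM in BALB/c. Reads of bases that are exonic in both genes could count for both. Whether the shared bases are exonic in both was not checked.

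Prc1, which bundles microtubules of the spindle midzone in late mitosis, measured 0.176, 0.213 and 0.195 RPKM in C57BL/6 left legs and 0.558, 1.16 and 1.03 RPKM in right legs. In BALB/c the values were 0.073, 0.165 and 0.323 RPKM in left legs and 0.642, 1.23 and 1.56 RPKM in right legs. No libraries of the legs overlapped, and the changes were 1.00 ± 0.17 (adjusted p = 0.00132) and 1.23 ± 0.24 (adjusted p = 0.00361), called in each strain under either scaling.

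Bub1b, a kinase-like protein of the spindle checkpoint, is named after its values were seen. It measured 0.087, 0.029 and 0.175 RPKM in C57BL/6 left legs and 1.62, 0.318 and 1.72 RPKM in right legs. Right replicate 2 was well below the other right libraries and still above every left one, and the change was 1.40 ± 0.37 (adjusted p = 0.0103), called after rescaling too, with 20 against 254 reads in all (ratio 12.6, exact 95% interval 7.97 to 20.9, counting error only). In BALB/c Bub1b held 5 reads in the left legs and 12 in the right, under the filter (ratio 2.32, interval 0.760 to 8.40).

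The genes most used as marks of dividing cells were near the limit of these libraries. Mki67, the nuclear proliferation antigen, held 11 reads in C57BL/6 left legs and 63 in right legs, and 59 and 101 in BALB/c, at means of 0.0193 ± 0.0199 and 0.110 ± 0.0497 RPKM, and 0.107 ± 0.0320 and 0.176 ± 0.0232 RPKM. Top2a, the topoisomerase that untangles chromosomes, held 8 and 38 reads in C57BL/6 and 37 and 72 in BALB/c. In both strains every right library was above every left library for these genes. They were under the filter in C57BL/6, where a fit with no filter called both (0.23, adjusted p = 0.0247, and 0.25, adjusted p = 0.0123), and were tested and not called in BALB/c (0.16, adjusted p = 0.285, and 0.24, adjusted p = 0.149).

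Cdk1, the kinase that drives mitosis, held 4 reads in C57BL/6 left legs and 13 in right legs, and 9 and 34 in BALB/c. Its cyclin partner Ccnb1 held 0 and 1 reads in C57BL/6 and 1 and 7 in BALB/c, and a count of 3 reads in a library would be up to 0.0718 RPKM. Bub1, another checkpoint kinase, held 1 and 5 reads, and 6 and 10. All 3 were under the filter in each strain, and the fit without the filter called none of them in either (adjusted p 0.0658 to 0.589). For Cdk1 the right to left ratio of reads had an exact 95% interval, for counting error only, of 0.994 to 13.6 around 3.22 in C57BL/6 and of 1.71 to 8.65 around 3.65 in BALB/c.

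Of the other mitotic members, Birc5 (survivin) and Aurkb (the Aurora B kinase) belong to the chromosomal passenger complex. Birc5 held 4 and 17 reads in C57BL/6 and 8 and 27 in BALB/c and rose in both as deposited (0.50 and 0.61, adjusted p = 0.00766 and 0.00413), but only in BALB/c after rescaling. Aurkb held 4 and 14 reads in C57BL/6, under the filter, and 6 and 28 in BALB/c, where it rose as deposited (0.44, adjusted p = 0.0139) and was not called after rescaling. Ccnb2, a second cyclin of Cdk1, rose in BALB/c as deposited (0.58, adjusted p = 0.0210), a call lost after rescaling and without left replicate 1 (0.51, adjusted p = 0.0694) or right replicate 3 (0.42, adjusted p = 0.0527). It was not called in C57BL/6 except without right replicate 3 (0.38, adjusted p = 0.0178). Plk1, a mitotic kinase, and Cdc20, an activator of the anaphase-promoting complex, were not called in either strain, with changes of 0.27 and 0.18 and of 0.15 and 0.27, but Plk1 was called in C57BL/6 without right replicate 1 (0.38, adjusted p = 0.0121).

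Among the G1 genes, Ccnd3, which encodes cyclin D3, measured 8.21, 8.06 and 8.29 RPKM in C57BL/6 left legs and 25.2, 27.0 and 26.3 RPKM in right legs. In BALB/c it measured 9.95, 12.9 and 13.5 RPKM against 26.8, 24.5 and 28.7 RPKM. The legs were far apart in each strain, with changes of 1.62 ± 0.06 (adjusted p = 1.82e-06) and 1.12 ± 0.15 (adjusted p = 0.000622), and both held after rescaling (0.92 and 0.61). Ccnd3 shares 358 bases of its span with Bysl on the other strand, which went from 8.06 ± 0.243 to 19.1 ± 0.652 RPKM in C57BL/6.

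The other D-type cyclins were not called as deposited in either strain. Ccnd1 measured 1.73, 0.859 and 1.16 RPKM in C57BL/6 left legs and 1.19, 2.20 and 1.47 RPKM in right legs, and 1.88, 3.62 and 3.05 against 8.91, 4.37 and 3.05 RPKM in BALB/c. Legs overlapped in each strain and Ccnd1 was not called (0.28, adjusted p = 0.302, and 0.74, adjusted p = 0.125), although it was called in BALB/c without right replicate 3 (1.05, adjusted p = 0.0473), and its C57BL/6 value after rescaling was -0.25. Ccnd2 measured 0.704, 0.454 and 0.737 RPKM against 0.536, 0.996 and 0.849 RPKM in C57BL/6, and 0.78, 1.46 and 1.26 RPKM against 0.731, 0.547 and 0.711 RPKM in BALB/c. Its legs overlapped in C57BL/6 (0.19, not called; -0.23 after rescaling). In BALB/c every right library was below every left one, which was not called as deposited (-0.50, adjusted p = 0.0611) and was called lower after rescaling (-0.83, adjusted p = 0.00508) and without left replicate 1 (-0.68, adjusted p = 0.0184).

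Cdk4, the kinase partner of the D-type cyclins, was the most abundant member per length, at 14.8, 17.5 and 19.6 RPKM in C57BL/6 left legs and 33.6, 33.3 and 27.4 RPKM in right legs. In BALB/c it measured 21.4, 25.8 and 22.2 RPKM against 49.1, 54.9 and 55.3 RPKM. No legs overlapped and Cdk4 rose in each strain as deposited (0.84 ± 0.12, adjusted p = 0.000577, and 1.18 ± 0.13, adjusted p = 0.000233), and after rescaling in BALB/c only (0.67 against 0.14 in C57BL/6). Cdk2, the partner of cyclins E and A, measured 1.13, 1.15 and 0.885 RPKM against 3.26, 3.40 and 3.28 RPKM in C57BL/6, and 1.54, 1.86 and 1.44 RPKM against 3.58, 2.07 and 3.64 RPKM in BALB/c. Right legs were above left legs in each strain, although BALB/c right replicate 2 stood close to the left legs. It rose in C57BL/6 under either scaling (1.30 ± 0.10, adjusted p = 2.43e-05), while its BALB/c call (0.74 ± 0.22, adjusted p = 0.0231) was lost after rescaling and without left replicate 1 or 3 or right replicate 1 or 3 (adjusted p 0.0630 to 0.0834).

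The 2 inhibitor members had small changes as deposited. Cdkn1b, which encodes p27, an inhibitor of Cdk2 complexes, measured 14.9, 14.6 and 17.2 RPKM in C57BL/6 left legs and 15.6, 16.9 and 14.6 RPKM in right legs, and 16.6, 16.9 and 16.5 against 18.5, 11.7 and 18.5 RPKM in BALB/c. The legs overlapped, and the deposited change was 0.01 ± 0.09 (adjusted p = 0.906) and -0.07 ± 0.19 (adjusted p = 0.795). After rescaling Cdkn1b was called lower in both strains, at -0.69 (adjusted p = 0.000429) and -0.58 (adjusted p = 0.0231). Cdkn2c, which encodes p18, an inhibitor of Cdk4, measured 3.40, 3.87 and 3.47 RPKM against 4.27, 3.39 and 4.78 RPKM in C57BL/6, and 4.08, 2.90 and 4.59 RPKM against 5.24, 5.47 and 6.54 RPKM in BALB/c. Its C57BL/6 legs overlapped and it was not called as deposited (0.18, adjusted p = 0.236), with a rescaled value of -0.46 that was called (adjusted p = 0.0217). In BALB/c right libraries were above left ones and it rose by the test (0.54, adjusted p = 0.0447), a call lost after rescaling and without any BALB/c library except left replicate 3 (adjusted p 0.0623 to 0.145).

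The difference between the strains in the right against left change was tested for the 28 members with enough signal in both tables, as the change in BALB/c less that in C57BL/6, in a fit of all 12 libraries. The rise was larger in C57BL/6 for 2 members, Rrm2 and Mcm6, and the change was more positive in BALB/c for 1, Tpx2, against 4.33% and 1.76% of all tested genes in these directions (after rescaling 2 and 1, the latter then Mcm7, against 3.49% and 3.71%). The difference was -2.80 ± 0.33 for Rrm2 (SE, adjusted p = 0.00225) and -1.97 ± 0.27 for Mcm6 (adjusted p = 0.00327). The BALB/c right libraries reached at most 2.49 RPKM for Rrm2 and 0.724 RPKM for Mcm6, below the lowest C57BL/6 right libraries at 7.41 and 3.60 RPKM, although levels were not tested across the separately normalized tables. Both differences held after rescaling (-2.71 and -1.71), and that of Mcm6 was not called by limma-voom on the recovered reads (-2.1, adjusted p = 0.0521).

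For Tpx2 the difference was 1.03 ± 0.27 (adjusted p = 0.0482). It rested on small margins: it was not called after rescaling (1.11, adjusted p = 0.0542), and it was lost on leaving out any library except BALB/c left replicate 1 or BALB/c right replicate 2 (0.78 to 1.07, adjusted p 0.0584 to 0.109). For Aurka, which binds Tpx2, the difference was -0.20 ± 0.31 (adjusted p = 0.723). Mcm7 had a difference of 0.49 ± 0.15 (adjusted p = 0.0732) that was called after rescaling (0.66, adjusted p = 0.0192) and without BALB/c right replicate 2 (0.52, adjusted p = 0.0490). For Bub1b, which was under the filter in BALB/c, a fit with no filter gave -1.31 ± 0.42 (adjusted p = 0.0993), so the difference was not called.

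**Figure D4:**
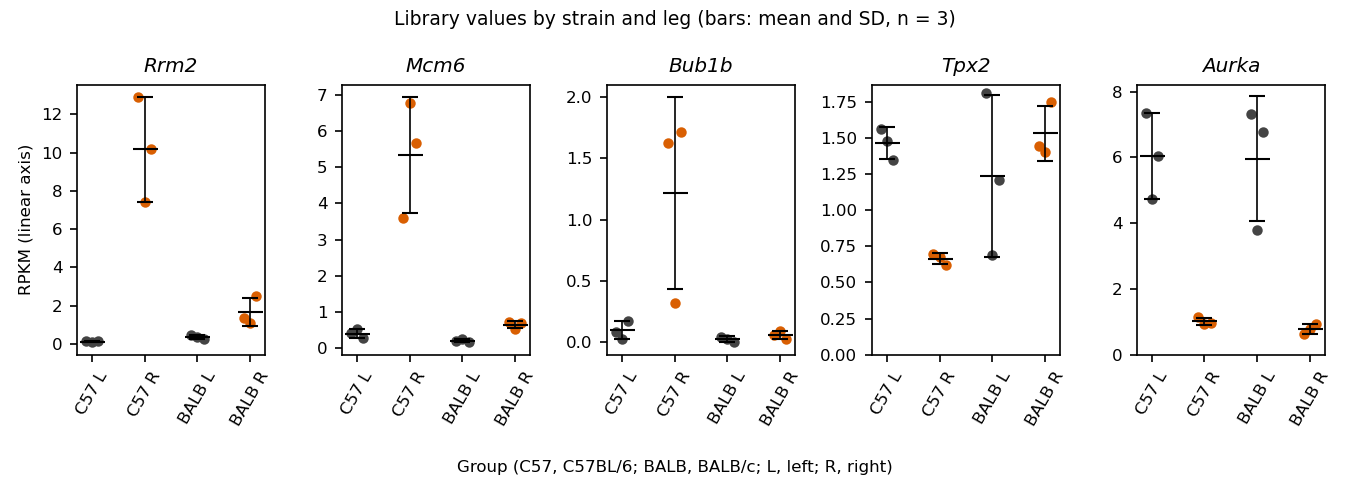
RPKM of 5 genes in each library (points, linear axis) by strain and leg, with the mean and SD of the 3 libraries of a group. Rrm2, Mcm6 and Bub1b are highest in C57BL/6 right legs, where Tpx2 lies between 0.623 and 0.695 RPKM, and Aurka is low in the right legs of both strains.

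Other genes of the pathway, in lists chosen by function, give the setting of the members. Their counts are to be read against the shares of all tested genes given above. In C57BL/6 and BALB/c these were 63.6% and 42.5% higher and 8.56% and 7.67% lower as deposited. After rescaling they were 28.2% and 21.8% higher and 26.4% and 19% lower. Among 38 other replication genes, 22 of 35 tested rose and 2 fell in C57BL/6 and 15 of 36 rose and 1 fell in BALB/c as deposited, and after rescaling 7 rose and 7 fell in C57BL/6 and 8 rose and 3 fell in BALB/c. As deposited these shares lay close to those of all genes. Gins1, a subunit of the complex that activates the helicase, went from 0.805 ± 0.237 to 2.96 ± 0.490 RPKM in C57BL/6 (1.41) and rose in BALB/c too (1.23). Its partner Gins2 went from 0.369 ± 0.224 to 2.79 ± 0.982 RPKM in BALB/c (1.91) and rose in C57BL/6 too (0.99). Rfc5, of the loader of the Pcna clamp, rose in both strains (1.35 and 1.56). Tk1, the thymidine kinase of S phase, fell in both, from 1.56 ± 0.165 to 0.474 ± 0.142 RPKM and from 1.70 ± 0.307 to 0.372 ± 0.129 RPKM, under either scaling. Rpa1, of the protein that coats single-stranded DNA, fell in C57BL/6 (-0.21, adjusted p = 0.0265) and was not called in BALB/c as deposited (adjusted p = 0.988).

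Of 42 other mitotic genes, 21 passed the filter in C57BL/6 and 24 in BALB/c. As deposited 12 rose and 0 fell in C57BL/6 and 7 rose and 0 fell in BALB/c, and after rescaling 5 and 3 rose, with 0 falls. Spc25, of the kinetochore, went from 11 to 155 reads in C57BL/6 (1.91) and from 7 to 85 in BALB/c (1.51). Ube2c, the ubiquitin-conjugating enzyme of the anaphase-promoting complex, and Incenp, the scaffold of the chromosomal passenger complex, rose in both strains as deposited (1.05 and 0.90, and 0.84 and 0.92).

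Among 20 transcriptional regulators of the cycle, 12 of 17 tested rose and 1 fell in C57BL/6 and 8 of 18 rose and 2 fell in BALB/c (6 and 5, and 7 and 6, after rescaling). Rb1, the retinoblastoma gene, went from 2.19 ± 0.249 to 25.9 ± 4.56 RPKM in C57BL/6 and from 2.23 ± 0.222 to 28.2 ± 8.03 RPKM in BALB/c (3.28 and 3.36). E2f8, a repressor of the E2F family, went from 0.0353 ± 0.0316 to 2.19 ± 0.476 RPKM in C57BL/6 (2.31) and rose in BALB/c (1.75). In C57BL/6 E2f8 passed the filter only through its right legs, and its call carries that limit. E2f6, another repressor, fell in both strains (-0.61 and -0.38). The MuvB subunit Lin37 rose in both strains (1.73 and 1.98). Its partner Lin9 fell in BALB/c (-0.87), a change that differed from the 0.02 of C57BL/6 by -0.89 (adjusted p = 0.0367). Foxm1 and Mybl2, the activators of mitotic genes, stayed low: Foxm1 held 9 and 37 reads in C57BL/6, under the filter, and 77 and 81 in BALB/c (not called, adjusted p = 0.994), and Mybl2 held 5 and 12 reads and 5 and 16, under the filter in each.

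Of 6 other inhibitors of cyclin-dependent kinases, 3 of 5 tested rose in C57BL/6 and 2 of 6 in BALB/c, with 0 falls, and after rescaling Cdkn1a and Cdkn1c rose in each strain. Cdkn2b and Cdkn3 were not called in either. Cdkn1a, which encodes p21, an inhibitor of Cdk2 and a target of p53, measured 4.89, 5.005 and 3.67 RPKM in C57BL/6 left legs and 769.6, 526.9 and 617.5 RPKM in right legs. It measured in BALB/c 7.27, 8.76 and 14.9 RPKM against 523.8, 492 and 685 RPKM. No legs overlapped, and the log2 change was 6.98 ± 0.16 (adjusted p = 3.17e-07) and 5.76 ± 0.26 (adjusted p = 8.57e-06). Cdkn1c, which encodes p57, rose from 21.6 ± 5.44 to 102.3 ± 42.3 RPKM in C57BL/6 and from 16.0 ± 3.91 to 280.0 ± 63.7 RPKM in BALB/c, a rise larger in BALB/c by 1.92 ± 0.40 (adjusted p = 0.0190).

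Of 15 other G1 genes and targets of p53, 9 rose and 1 fell in C57BL/6 and 6 rose and 1 fell in BALB/c (5 and 6, and 5 and 3, after rescaling). Gadd45a, a stress gene that inhibits the Cdk1 complex, went from 11.4 ± 3.15 to 798.5 ± 25.9 RPKM in C57BL/6 and from 6.81 ± 1.81 to 772.6 ± 150.6 RPKM in BALB/c. Trp53, which encodes p53, rose in both strains (1.45 and 1.43), and Mdm2, its ubiquitin ligase, rose more in BALB/c (2.47 against 1.75, difference 0.72, adjusted p = 0.0468). Btg2, an antiproliferative gene, rose in both strains as deposited (1.997 and 1.43), and Ccng1, which encodes cyclin G1, fell in both (-0.50 and -0.62).

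Marker genes of other cell types were measured beside the members, and their part in the values of the members was not tested. All 14 macrophage markers rose in C57BL/6 under either scaling (summed 10.3 to 14.0 RPKM in left and 96.7 to 190.2 RPKM in right libraries), and in BALB/c 11 of 14 rose as deposited and 9 after rescaling (65.0 to 109.5 and 194.6 to 309.3 RPKM). The strain difference was called for 3 of the 14, Cd68, Csf1r and Lyz2, whose rise was larger in C57BL/6, with differences of -2.89, -1.37 and -1.57 (adjusted p = 0.00327, 0.0353 and 0.0313), and the median difference of the list was -0.87. Of 10 fibro-adipogenic progenitor markers 9 rose and 0 fell in C57BL/6 and 5 rose and 1 fell in BALB/c, and after rescaling 6 rose and 1 fell in C57BL/6 and 0 rose and 1 fell in BALB/c. Among them the collagen genes Col1a1 and Col3a1 were called for the strain difference, at -2.75 and -1.64 (adjusted p = 0.00225 and 0.0337). The median difference of the 10 was -1.09, against -0.14 over all tested genes. Of 10 satellite cell markers 6 rose in C57BL/6 and 4 in BALB/c with 0 falls, close to the shares of all tested genes, and after rescaling 2 rose in each strain and 2 fell in BALB/c. Their sums were 39.9 to 42.5 RPKM in left and 66.3 to 93.1 RPKM in right libraries of C57BL/6, and 56.0 to 72.5 and 92.2 to 104 RPKM in BALB/c. Pax7, which defines these cells, was not called in either strain as deposited (0.26 and -0.21). Of the 10 satellite cell markers only Cd34 was called for the strain difference, at -1.14 (adjusted p = 0.021).

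Of 10 endothelial markers 0 rose and 3 fell in C57BL/6 and 1 rose and 2 fell in BALB/c, and after rescaling 9 and 8 fell and 0 rose. Over all tested genes the shares called lower were 8.56% and 7.67% as deposited and 26.4% and 19% after rescaling. Of the markers of Schwann cells, the glia of nerves, Mbp is given as an example chosen after its values were seen. It measured 20.4, 0.539 and 3.36 RPKM in C57BL/6 left libraries and 17.7, 11.9 and 7.05 RPKM in right ones, and 8.26, 35.7 and 19.3 against 27.3, 14.4 and 33.3 RPKM in BALB/c. Its legs overlapped and it was not called in either strain (1.45 and 0.39). C57BL/6 left replicate 1 stood above the other left libraries of its strain, and without it 17 members rose and 2 fell in C57BL/6. Lymphocyte markers summed to at most 0.649 RPKM in left and 4.20 RPKM in right libraries, with Cd3e at 0 in every left library. Erythroid markers summed to 53.04, 81.5 and 5.30 RPKM in BALB/c right libraries and to between 4.18 and 5.91 RPKM in those of C57BL/6, with no strain difference called and with Gata1 at 0 in all 6 C57BL/6 libraries.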

How the data were processed

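Polyadenylated RNA of 12 gastrocnemius libraries was analysed, 3 for each strain and leg, in groups given by the labels. The authors deposited RPKM values in 1 table per strain. The file headers record that HOMER counted exonic reads irrespective of strand, with 1 transcript listed for a gene and an mm9 annotation; column names say FPKM while the recorded command asks for RPKM. HISAT2, HOMER and DESeq2 appear in the submitters' processing notes with no version or role, as do the builds GRCm38 and mm10, and the build of the alignment was not stated there. Gene positions are those of the files (mm9), and promoters are those of RefSeq on GRCm38.p6. For the last library of each BALB/c leg the column code and the title number differ, and columns were matched through the code in the description of each sample.

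Multiplying RPKM by transcript length and by a scaling total (18132620 to 19282890 reads) gave whole reads within 0.1 read for 99.7% to 99.9% of the values of a library, and 14826934 to 17323385 reads lay in listed genes. These reads gave the counts, exact 95% intervals of ratios and the floor of 3 reads per library, all for counting error only. Genes averaging at least 0.1 RPKM were tested as log2(RPKM + 0.5) by limma 3.58.1 (R 4.3.3; lmFit, then eBayes with its trend option). Tests were two-sided, and p-values were adjusted by Benjamini-Hochberg over all tested genes (14551 in C57BL/6, 14819 in BALB/c and 14165 for the strain difference) and called under 0.05. The procedure was run on simulated data in which the changed genes were not weakly expressed and the legs did not differ as a whole. Weakly expressed genes and a shift of most genes were not covered by it. Tests were made within a table, since the tables were normalized separately; a constant between them cancels in the strain difference.

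Every member is accounted for by role. Library values are given for the 4 members of the S phase and of the mitotic list with the highest mean, all G1 members and inhibitors, and members called for the strain difference; of the other lists, Cdkn1a, Foxm1, Mybl2, Trp53, Rb1 and, per list and strain, up to 2 called genes per direction with the largest change are named. Members and lists were chosen with earlier results of these data known. Sgo1 was matched through its alias Sgol1, and Ahsp was not analysed here. The Schwann cell list is not reported as a whole here. Alternatives were median-of-ratios and TPM rescaling, a filter of 1 RPKM or none, pseudocounts of 0.1 and 1, eBayes without a trend, limma-voom on the recovered reads, a replicate block, and leaving out each library. Python 3.11.15 with pandas 2.3.3, scipy 1.17.1 and matplotlib 3.10.9 served for the remaining steps.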

Additional observations from a re-analysis of the deposited data

Results flagged for a closer look

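For 3 members the right against left change differed between the strains by the test of the difference itself (limma over all 12 libraries). The change in BALB/c less that in C57BL/6 was -2.80 for Rrm2 (adjusted p = 0.00225), -1.97 for Mcm6 (adjusted p = 0.00327) and 1.03 for Tpx2 (adjusted p = 0.0482). Rrm2 and Mcm6 rose in both strains and rose more in C57BL/6, and Tpx2 fell in C57BL/6 and was not called in BALB/c. The Tpx2 difference was lost without any library except BALB/c left replicate 1 or BALB/c right replicate 2.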

How the results depend on the processing

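Counts of called members moved with the scaling and the filter. In C57BL/6 the 19 risen members became 11 after median-of-ratios rescaling and 12 with a filter of 1 RPKM (fewer genes tested), and the 2 fallen became 5 after rescaling. In BALB/c the 17 risen became 9 after rescaling and 9 with that filter, and the 1 fallen became 3 after rescaling and 2 with limma-voom. For the strain difference, the 1 member more positive in BALB/c became 0 under TPM rescaling, no filter, a pseudocount of 1 or the replicate block. The 2 that rose more in C57BL/6 became 1 with limma-voom and 0 where 1 RPKM was the filter. Under that filter Rrm2 and Mcm6 were not tested for the difference, since their BALB/c means were 0.999 and 0.429 RPKM. Leaving out each library in turn gave 17 to 21 risen and 2 to 2 fallen in C57BL/6, 12 to 17 and 1 to 2 in BALB/c (2 without BALB/c left replicate 1, which added Ccnd2), and 0 to 2 and 2 to 4 for the strain difference (4 without BALB/c left replicate 1).

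The median change of S phase members in C57BL/6 (0.75) was 0.25 after rescaling, 1.17 with limma-voom, 0.85 under the stricter filter, and 1.06 and 0.62 with pseudocounts of 0.1 and 1; in BALB/c (0.69) it was 0.26, 0.55 under TPM, 1.02 with limma-voom, and 0.85 and 0.44. For mitotic members in C57BL/6 (0.27) it was 0.12 after rescaling, 1.10 with limma-voom, 0.71 and 0.15 with those pseudocounts and -0.75 under the stricter filter, which tests fewer genes; in BALB/c (0.27) it was 0.10, 0.94 with limma-voom and 0.60 with the pseudocount of 0.1. Leaving out libraries gave 0.69 to 0.81 and 0.61 to 0.76 for S phase, and 0.26 to 0.38 and 0.23 to 0.42 for mitotic members.

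Single values turned sign after rescaling in C57BL/6 for Ccnd1 (-0.25), Ccnd2 (-0.23), Ccne2 (-0.39), Cdkn1b (-0.69), Cdkn2c (-0.46), Mcm2 (-0.01) and Rrm1 (-0.03), and in BALB/c for Ccne2 (-0.23), E2f1 (-0.04), Mcm2 (-0.28, and -0.01 under TPM) and Tpx2 (-0.11). Cdkn1b turned in C57BL/6 without left replicate 1 (-0.02), left replicate 2 (-0.03) or right replicate 2 (-0.04; range on leaving out a library -0.04 to 0.08), and in BALB/c without right replicate 2 (0.15; range -0.17 to 0.15). TPM rescaling also lost the BALB/c calls of Cdk2, Cdkn2c, Mcm3, Mcm5 and Rrm1 (adjusted p 0.102 to 0.27) and the C57BL/6 call of Mcm5 (0.0508), limma-voom lost that of Cdkn2c and added Ccnd2 (lower), Mcm4 and Tyms in BALB/c, and a pseudocount of 1 the C57BL/6 calls of E2f1 (adjusted p = 0.0517) and Mcm5 (0.0502). The cause of these shifts was not tested.

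Whether equal replicate numbers pair the legs is not labelled. Same-numbered legs had correlations of 0.117, 0.06 and 0.034 in C57BL/6 and 0.03, 0.054 and 0.202 in BALB/c, all positive but over 0.1 in 2 of 6 pairs, which misses the criterion of every pair over 0.1, so the fits carry no block. Of the differently numbered pairs 9 of 12 were negative, and 9 of 12 libraries correlated best with their own number. The correlated values were deviations from the mean of each group, which cancel within the group. These counts therefore follow in part from the positive same-numbered correlations and are no separate evidence of pairing. With the replicate block, 9144 genes rose and 1217 fell in C57BL/6 and 5782 and 1058 in BALB/c, against 9258, 1246, 6302 and 1136 without it, and of the members it lost Mcm5 in both strains (adjusted p = 0.0541 and 0.0676), Cdk2 (0.0519) and Cdkn2c (0.0510) in BALB/c and the strain difference of Tpx2 (0.0617). Depth limits the weakest mitotic members, which held between 0 and 13 reads over the legs of C57BL/6 (Cdk1, Ccnb1 and Bub1).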
